A study of Mus musculus with 8 samples.

Results

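Sorted tdTomato+ cells of the E11.5 mouse forelimb were compared with whole limb cells of the same stage after both had been restricted to the same proximal, non-myogenic gate. Cells were selected on their own UMI counts. A cell was kept if it held at least 3000 unique molecular identifiers (UMIs, each marking 1 captured transcript) and at most 10% mitochondrial UMIs, no UMI of *Hoxa13* or *Hoxd13*, at least 1 UMI of *Meis1* or *Meis2*, and no UMI of *Myod1*, *Myog*, *Pax3*, *Lbx1*, *Epcam*, *Pecam1* or *Alas2*. The gate kept 736 sorted cells, 1369 cells of whole limb 1 and 1544 cells of whole limb 2. These were 3649 of the 14311 E11.5 cells that passed the UMI and mitochondrial limits, out of 53085 such cells in the 8 libraries of the series.

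The sorted cells came from C57BL/6J embryos labelled Hic1CreERT2/CreERT2;Rosa26LSLtdTomato/tdTomato, in which tamoxifen lets Cre switch on the red fluorescent protein tdTomato in cells that use the *Hic1* promoter, and in their descendants. The dams were gavaged with 7.5 mg of tamoxifen at E10 and forelimbs were taken at E11.5. The labels of both whole limb libraries give the same strain, stage and tissue and both tdTomato+ and tdTomato- cells, and the study's methods give them the same alleles, which would put the *Hic1* knock-in on both alleles in both groups. The reporter levels given below, taken in gated cells only, leave unclear whether reporter-labelled cells were present in the whole limb libraries. The methods pool forelimbs of several embryos, and sort against blood and endothelial surface markers. The sorted group was 1 library and the whole limb group 2.

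*Hic1* encodes a zinc finger transcriptional repressor. The mesenchyme of the limb bud comes mostly from the lateral plate, where *Prrx1* and *Tbx5* are early regulators, and the limb also receives cells from the somites, whose regulators include *Pax1*, *Pax3* and the Meox genes. *Meis1* and *Meis2* mark the proximal limb and *Hoxa13* and *Hoxd13* its distal end, which is why the gate used them to narrow position along the limb.

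The 11 gate genes chose the cells, so their levels are a description. Among cells past the UMI and mitochondrial limits, a UMI of *Hoxd13* was found in 4.90% of sorted cells and in 32.8% and 30.8% of whole limb 1 and 2 cells. *Epcam* UMIs were more frequent in sorted cells (14.8%) than in whole limb cells (5.82% and 5.67%), and *Myod1* UMIs less frequent (0.158% against 4.50% and 3.91%). Of the cells left by the lineage genes, the *Hox* step removed 5.03% of the sorted cells and 35.6% and 33.5% of the whole limb cells, and of the rest 69.6% of the sorted and 52.7% and 50.6% of the whole limb cells had no Meis UMI. The *Hox* step removed the larger share on the whole limb side and the Meis step the larger share on the sorted side. The gated sorted cells were thus a minority with Meis UMIs, and how well the gate matched position was not tested. The gate did not equalise Meis levels, since *Meis2* was at 235 CPM in the gated sorted cells against 350 and 367 CPM, and *Meis1* at 95.8 CPM against 104 and 105 CPM, where CPM is the UMIs of a gene per 1000000 summed UMIs of a library.

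At the edges of the gate, the sorted cells with exactly 1 Meis UMI (339 cells) had 252 CPM of *Osr2* and 0.303 CPM of *Pax1*, and the sorted cells with none (1682 cells, left out) had 344 and 0.0699 CPM. In whole limb 1 the 444 cells with 1 Meis UMI had 66.1 CPM of *Osr2* and 33.6 CPM of *Pax1*, and the 1523 cells with none had 75.6 and 6.54 CPM. In whole limb 2 these values were 47.5 and 28.2 CPM in 505 cells, and 77.6 and 4.70 CPM in 1580 cells. The sorted cells with no Meis UMI had 28.5 CPM of *Hic1*, 506 of tdTomato and 66.4 of *Aldh1a2*. All gated sorted cells had 16.4, 398 and 35.5 CPM. *Osr1*, *Meox1* and *Meox2* were at 112, 50.3 and 231 CPM in the former and at 115, 54.4 and 233 CPM in the latter. The results below describe the gated sorted cells, not the whole sorted library. From 2500 UMIs up to the limit of 3000, just outside, lay 11 sorted, 25 whole limb 1 and 12 whole limb 2 cells that met the other steps, against 14, 26 and 25 cells from 3000 up to 3500 UMIs.

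The gated cells held 8473426 UMIs in the sorted library and 11020696 and 12193468 in the whole limb libraries. Sorted cells were deeper, with a median of 10798.5 UMIs against 7543 and 7551.5, and a gate of 0 or at least 1 UMI depends on depth. The lowest count of any deposited barcode was 500 UMIs in the sorted library and 2396 and 2274 in the whole limb libraries. Pairs of libraries shared between 32 and 45 cell barcodes, under 1% of each. The whole limb libraries differed from each other by more than sampling noise (chi-square per degree of freedom 5.20 over genes), and were kept as 2 samples.

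The reporter agreed in direction with the labels. tdTomato reached 398 CPM in the sorted library, against 4.08 and 6.72 CPM in whole limb 1 and 2. At least 3 tdTomato UMIs were found in 63.3% of the gated sorted cells, and no gated whole limb cell had more than 2, although these libraries are labelled as holding tdTomato+ cells too. The study's flow cytometry found tdTomato+ cells to be rare in the forelimb mesenchyme at E11.5, so few would be looked for among these cells. Whether the reporter was present and induced in those embryos was not tested. *Hic1* itself (chr11:75164565-75169519, GRCm38) was at 16.4 CPM (exact Poisson 95% interval 13.8 to 19.4) in the sorted library, against 1.54 and 1.39 CPM in whole limb 1 and 2. Its log2 fold change was 3.4 (SE 0.27, edgeR adjusted p = 9.3e-34). In whole limb cells with a *Hoxa13* or *Hoxd13* UMI it was at 0.229 and 0.306 CPM.

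The gated cells were described by marker lists. The gate had already removed cells with UMIs of muscle, epithelial, endothelial or erythroid genes, so low levels of those classes were partly set by it. Of 5 limb mesenchyme markers, 2 (*Prrx1* and *Prrx2*) were lower in the sorted cells and none was higher, with a summed level of 936 CPM against 1668 and 1564 CPM. The list was split, since *Pdgfra* (250 CPM against 153 and 179 CPM) and *Tbx5* (222 CPM against 139 and 129 CPM) stood above both whole limb libraries within the 2-fold limit, at log2 fold changes of 0.51 and 0.65, and *Twist1* was at 130 CPM against 176 and 163 CPM. All 7 erythroid markers were at 0 UMIs in the sorted cells, and summed to 6.35 and 5.25 CPM in the whole limb cells. Summed markers of muscle (4.01 against 4.81 and 4.26 CPM, 6 markers), epithelium (21.4 against 20.5 and 17.1, 8 markers), endothelium (2.83 against 1.81 and 1.89, 6 markers), immune cells (1.53 against 4.54 and 2.38, 6 markers), nerve glia (11.3 against 8.98 and 5.33, 6 markers), neurons (11 against 12.7 and 20.3, 5 markers) and pericytes (39.3 against 31.2 and 34.7, 6 markers) stayed under 40 CPM in each library. Single members were called within these sums. *Acta2*, the smooth muscle actin gene of the pericyte list, was higher at 11.2 CPM against 2.99 and 1.72 CPM (log2 fold change 2.18, SE 0.27), as were *Perp* (3.78 against 0.817 and 0.902 CPM), *Erbb3* (5.66 against 2.72 and 2.54 CPM) and *Tnnt1* (3.66 against 2.27 and 1.23 CPM). *Krt8*, *Actc1*, *Fcer1g*, *Stmn2* and *Tubb3* were lower, each under 9 CPM in every library. In these classes at least 1 marker was at 0 in the sorted library for all but the neuronal and pericyte lists. Their part in the results below was not tested.

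Across 12922 genes tested, 694 were higher in the sorted cells and 349 lower at an edgeR adjusted p under 0.05 and at least 2-fold, which is 5.37% and 2.70% of the genes. Without the 2-fold limit 4539 genes (35.1%) passed. The spread was estimated from the 2 whole limb libraries and pooled over genes, and the lone sorted library was taken to vary like them. DESeq2 gave 232 genes higher and 182 lower, gating on cells thinned to 3000 UMIs 418 and 213, and leaving out cycling cells 193 and 164, while 460 and 212 of the called genes stayed 2-fold apart on the log2(CPM + 1) scale without whole limb 2, and 529 and 221 without whole limb 1. The median log2 fold change of all genes tested was 0.01. Counts of calls in the gene lists below are to be read against the shares called over all genes tested, which some of them are near. The lists were chosen with earlier results of these data known, so their counts and medians are descriptions. Of the 1043 called genes, 1040 had a sorted value outside both whole limb values. One of the exceptions, named after its values were seen, was *Pf4*, a platelet and macrophage chemokine gene, at 1.89 CPM in the sorted cells, 63.7 CPM in whole limb 1 and 0.738 CPM in whole limb 2, so that whole limb 1 decided its call. In sums over cells, a lower level can mean fewer cells with the transcript or less of it per cell, and these cannot be told apart from the sums alone.

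The higher genes included *Osr1*, *Osr2*, *Tbx15* and both Meox genes. In the list of connective progenitor regulators 4 of 21 tested genes were higher and 1 lower, with a median log2 fold change of 0.21. *Osr2*, an odd-skipped zinc finger factor (chr15:35296098-35303305), was at 158 CPM in the sorted cells and 36.1 and 27.2 CPM in the whole limb cells, and *Osr1*, its relative in connective tissue progenitors, was at 115 CPM against 44.7 and 39.4 CPM. Their log2 fold changes were 2.25 (SE 0.10) and 1.37 (SE 0.11). *Meox2*, a homeobox gene of somite and limb muscle mesenchyme, was at 233 CPM against 84.0 and 77.2 CPM, and *Meox1*, the somite homeobox gene, at 54.4 against 15.6 and 17.2 CPM, with log2 fold changes of 1.46 (SE 0.10) and 1.65 (SE 0.15). *Tbx15*, a T-box gene of limb mesenchyme, was at 184 CPM against 69.1 and 67.1 CPM (log2 fold change 1.36, SE 0.10). All 5 genes stood above both whole limb libraries, at edgeR adjusted p values from 6.22e-26 (*Meox1*) to 2.9e-99 (*Osr2*). Without cycling cells *Meox1* lost its call, as did *Snai2*, the lower gene of the connective list, which also lost it without matching.

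Of 18 tested genes in the list of somite, sclerotome and syndetome regulators, 6 were higher and 2 lower, with a median log2 fold change of 0.68. The higher ones were *Meox1*, *Meox2*, *Mkx*, *Foxc2*, *Foxd2* and *Dmrt2*, the last 3 at under 7 CPM. *Mkx*, a tendon homeobox gene, was at 34.8 CPM against 4.63 and 6.31 CPM. *Scx*, the early tendon factor, was at 164 CPM against 85.1 and 74.6 CPM, short of the 2-fold limit (log2 fold change 0.96). The lower ones were *Pax1* and *Zic2*. The list was therefore split in direction. Membership in the list does not show where a cell came from. *Zic2* was at 43.1 and 44.1 CPM in whole limb cells with Hox13 UMIs, against 14.2 and 15.5 CPM in the gated ones. Whether the whole limb cells with *Pax1* or *Zic2* UMIs came from the somites was not tested.

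*Pax1*, the sclerotome paired-box gene (chr2:147361925-147393295), had the largest decrease among genes of at least 50 CPM, with 6.49 CPM in sorted cells (interval 4.89 to 8.45) against 115 and 114 CPM, a log2 fold change of -4.21 (SE 0.16, edgeR adjusted p = 1.45e-147). It was found in 12.6% of the cells of each whole limb library and in 0.543% of the sorted cells when each cell was thinned to 3000 UMIs. In whole limb cells with Hox13 UMIs it was at 4.63 and 8.98 CPM, so its whole limb level lay mostly in the cells the gate kept. The gate was not built to match anterior to posterior position, whose part in this difference was not tested. By staining at E11.5, the paper saw a small number of cells with both PAX1 protein and tdTomato.

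**Figure D1:**
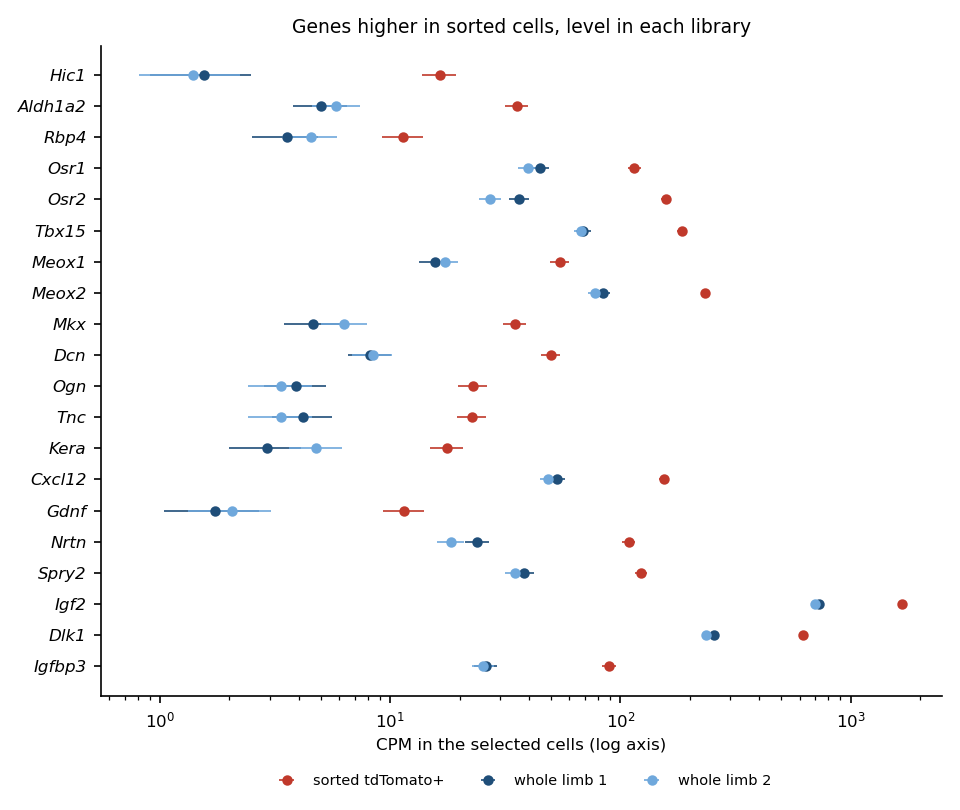
Level in CPM (log axis) of 20 genes that were higher in the gated sorted cells, in the sorted library (red) and both whole limb libraries (dark and light blue), with exact 95% Poisson intervals as lines. The red point lies to the right of both blue points for each gene, from Hic1 at 16.4 against 1.54 and 1.39 CPM to Igf2 at 1674 against 730 and 699 CPM.

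Retinoic acid acts in the proximal limb, and CYP26B1 clears it distally. *Aldh1a2*, which makes retinoic acid, was at 35.5 CPM in the sorted cells against 4.99 and 5.82 CPM (log2 fold change 2.63, SE 0.18). *Rbp4*, the retinol carrier, was at 11.3 CPM against 3.54 and 4.51 CPM. These were the only 2 of 16 tested genes of the list to pass in either direction, and the median was 0.14. The clearing enzyme *Cyp26b1* was at 43.7 CPM against 41.0 and 46.2 CPM and the binding protein *Crabp2* at 577 CPM against 785 and 888 CPM, neither of which passed. *Rbp4* lost its call under stricter matching and without matching, where its log2 fold change was 0.51 in place of 1.41.

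Matrix genes were higher where they passed. Of 40 tested interstitial matrix genes 10 were higher and none lower, with a median of 0.36. *Dcn*, which encodes the small proteoglycan decorin, was at 49.8 CPM against 8.17 and 8.37 CPM (log2 fold change 2.51, SE 0.17). *Ogn*, the related osteoglycin, was at 22.8 CPM against 3.90 and 3.36 CPM, and *Tnc*, tenascin-C, at 22.7 CPM against 4.17 and 3.36 CPM. The fibrillar collagen genes were within the 2-fold limit: *Col1a1* was at 205 CPM against 118 and 121 CPM and *Col3a1* at 363 CPM against 261 and 295 CPM. No basement membrane gene of 14 tested was called, which is near what the shares called over all genes would give for so short a list. Of 14 tested tendon genes, 6 were higher (*Mkx*, *Thbs4*, *Fmod*, *Kera*, *Htra3* and *Eya2*) and 1 (*Eya1*) lower, with a median of 0.75. Of these 6 only *Mkx* and *Kera* reached 10 CPM in the sorted cells. Of 17 chondrogenic genes 1 was higher and 4 lower, with a median of 0.14. *Col9a2*, a cartilage collagen, was at 58.3 CPM against 24.2 and 18.7 CPM, and lost its call among cells with at least 3 Meis UMIs. *Runx2*, a regulator of bone formation, was at 6.73 CPM against 26.7 and 27.7 CPM. *Sox9*, which drives cartilage formation, was at 363 CPM against 229 and 221 CPM and was not called. *Matn1* had no UMI in the sorted library and 10 and 17 UMIs in the whole limb libraries, too few for a fold.

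Several genes of signalling, guidance and fetal growth were called. *Cxcl12*, the ligand of the chemokine receptors CXCR4 and ACKR3, was at 155 CPM against 52.9 and 48.6 CPM, and *Ackr3* at 6.37 CPM against 14 and 17.6 CPM. *Gdnf* and *Nrtn*, 2 ligands of the GDNF family, were at 11.4 against 1.72 and 2.05 CPM and at 109 against 23.9 and 18.3 CPM. *Ntn1*, an axon guidance ligand, was at 41.2 CPM against 14 and 17.8 CPM. Of 38 tested migration and guidance genes 8 were higher and 3 lower, with a median of 0.07. *Igf2*, a fetal growth factor, was at 1674 CPM against 730 and 699 CPM, and *Dlk1*, an imprinted inhibitor of adipogenesis, at 623 CPM against 254 and 235 CPM. *Peg3*, another imprinted gene, was lower, at 368 CPM against 857 and 903 CPM. Of 19 tested IGF and fetal growth genes 3 were higher and 1 lower, with a median of 0.02, and 15 were not called. *Ackr3* lost its call without matching and *Dlk1* without cycling cells.

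The FGF list had 4 genes higher and 1 lower of 19 tested. *Spry2* and *Spry1*, feedback inhibitors of FGF signalling, were at 123 against 38.2 and 34.8 CPM and at 43.1 against 15.4 and 17.1 CPM, and *Fgfr3* was at 5.78 CPM against 12 and 11.1 CPM. In the BMP list 3 were higher and 2 lower of 22. *Bmp4* was at 92.9 CPM against 42.0 and 40.1 CPM. *Id1*, a target of BMP signalling, was at 988 CPM against 1909 and 2362 CPM. *Grem1*, a BMP inhibitor, sat at the 2-fold limit with 9.56 CPM against 16.6 and 19.6 CPM (log2 fold change -1.0, SE 0.20). Of the signalling lists, WNT had the most lower members, with 10 lower and 1 higher of 35 tested, with a median of -0.27. They included the targets *Lef1* (21.0 CPM against 83.0 and 76.3), *Nkd1* (27.0 CPM against 96.2 and 99.7) and *Axin2* (15.5 CPM against 38.5 and 40.3), the inhibitor *Dkk1* (5.55 CPM against 31.5 and 25.3) and the ligand potentiator *Rspo1* (3.42 CPM against 13 and 13.2). *Dkk3* was the higher one, at 10.1 CPM against 3.99 and 4.10 CPM. In the hedgehog list *Gli1*, a target, was higher (10.5 CPM against 5.44 and 3.77) and the co-receptor gene *Cdon* lower (19.7 CPM against 45.6 and 53.4). Calls were lost under DESeq2 and with thinned cells for *Gli1*, *Dkk3* and *Fgfr3*, with thinned cells for *Rspo1*, and without matching for *Gli1* (log2 fold change 0.16 in place of 1.12), *Bmp4* (0.85 in place of 1.10) and *Cdon* (-0.85 in place of -1.41). *Grem1* lost its call under 6 alternatives, *Dkk3* under 4, and *Id1*, *Spry1* and *Fgfr3* without cycling cells. *Bmp4* also lost its call under stricter matching.

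Several limb-field and distal homeobox genes were lower in the sorted cells after gating, and others were not called or were higher. *Prrx1* (chr1:163245119-163313710) was at 236 CPM against 847 and 774 CPM and *Prrx2* at 97.7 CPM against 353 and 319 CPM, with log2 fold changes of -1.85 (SE 0.14) and -1.86 (SE 0.12). In contrast *Tbx5*, the forelimb T-box gene, was at 222 CPM against 139 and 129 CPM and was not called. *Irx3* and *Irx5*, Iroquois factors of the early limb, were at 20.9 CPM against 111 and 106 CPM and at 13.7 CPM against 59.3 and 56.6 CPM. Of 28 tested limb field genes, 10 were lower and 4 higher, with a median of -0.38.

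Of 16 tested distal regulators, 10 were lower and none higher, with a median of -1.46. *Msx2*, a homeobox gene of the BMP response (chr13:53466884-53473074), was at 25.1 CPM against 259 and 240 CPM (log2 fold change -3.38, SE 0.14), *Msx1* at 40.1 against 264 and 215 CPM (-2.65, SE 0.13), and *Lhx9*, a LIM homeobox gene, at 18.3 against 215 and 227 CPM (-3.67, SE 0.14). *Hoxd11* and *Hoxa11*, which mark the middle segment of the limb, were at 69.3 against 74.3 and 73.5 CPM and at 13.5 against 23.3 and 15.9 CPM, and neither was called. The distal regulators so divided into genes lower and genes not called. As this list was chosen with earlier results of these data known, its count and median are a description.

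**Figure D2:**
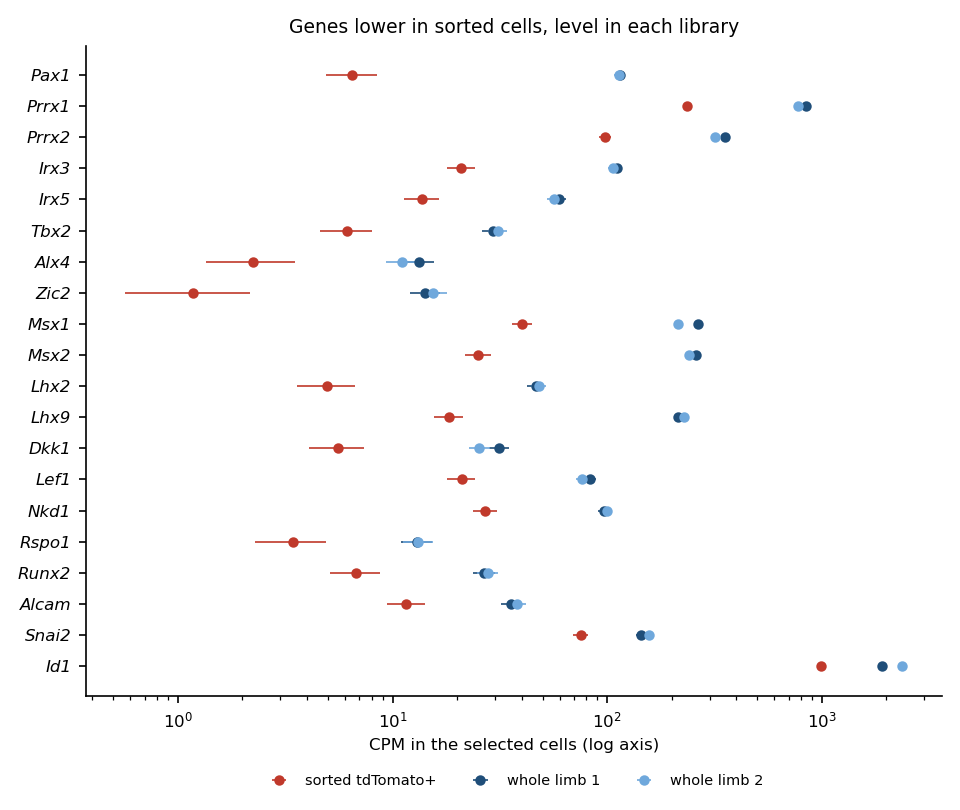
Level in CPM (log axis) of 20 genes that were lower in the gated sorted cells, in the sorted library (red) and both whole limb libraries (dark and light blue), with exact 95% Poisson intervals as lines. The red point lies to the left of both blue points for each gene, with Pax1 at 6.49 against 115 and 114 CPM at the top.

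The promoters of the homeobox genes *Msx2*, *Prrx1* and *Meox2* and of *Hic1* are shown as examples of genes called lower (*Msx2* and *Prrx1*) and higher (*Meox2* and *Hic1*). Sequences are from RefSeq (GRCm38.p6), run 5′ to 3′ from 250 bases before to 50 after a start site, and were picked after the levels had been seen, from 10 genes looked up of which 9 had an entry. The RefSeq start sites need not be the ends of the gene spans given above: they lay 736 bases from the GENCODE start for *Hic1*, whose window is outside its printed span and which had 2 entries (the nearer is shown), 294 bases for *Msx2*, whose window is inside it, 60 bases for *Prrx1* and 0 for *Meox2*. Capitals mark, on either strand, the homeodomain core TAATTA, the nuclear receptor half-site AGGTCA, the TATA box TATAAA and the GC box GGGCGG.
Msx2 promoter, chr13:53472731-53473030 (minus strand): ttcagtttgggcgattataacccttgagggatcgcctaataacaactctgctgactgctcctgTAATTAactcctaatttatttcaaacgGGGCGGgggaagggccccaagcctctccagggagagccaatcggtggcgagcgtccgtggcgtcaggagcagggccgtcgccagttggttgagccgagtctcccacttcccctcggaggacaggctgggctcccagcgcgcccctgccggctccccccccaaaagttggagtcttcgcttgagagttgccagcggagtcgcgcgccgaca
Prrx1 promoter, chr1:163313601-163313900 (minus strand): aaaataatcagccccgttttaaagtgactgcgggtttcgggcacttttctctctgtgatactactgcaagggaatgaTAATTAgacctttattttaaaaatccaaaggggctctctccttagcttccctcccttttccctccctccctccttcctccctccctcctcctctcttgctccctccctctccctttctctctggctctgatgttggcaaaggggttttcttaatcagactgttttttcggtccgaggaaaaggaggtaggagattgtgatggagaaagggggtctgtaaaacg
Meox2 promoter, chr12:37108290-37108589 (plus strand): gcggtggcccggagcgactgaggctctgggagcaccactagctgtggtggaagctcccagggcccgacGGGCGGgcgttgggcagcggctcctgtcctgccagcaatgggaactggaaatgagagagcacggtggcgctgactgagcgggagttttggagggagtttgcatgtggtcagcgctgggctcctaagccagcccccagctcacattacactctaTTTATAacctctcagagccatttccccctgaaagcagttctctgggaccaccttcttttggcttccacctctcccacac
Hic1 promoter, chr11:75170206-75170505 (minus strand): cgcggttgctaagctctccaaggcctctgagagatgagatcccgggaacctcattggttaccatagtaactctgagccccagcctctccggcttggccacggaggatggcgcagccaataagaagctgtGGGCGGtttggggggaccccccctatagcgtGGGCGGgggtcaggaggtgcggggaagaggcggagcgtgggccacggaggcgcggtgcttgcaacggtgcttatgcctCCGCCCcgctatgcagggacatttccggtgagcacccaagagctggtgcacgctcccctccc
TAATTA was found in 2 of the 9 promoters (*Msx2* and *Prrx1*) and in 5.29% of 32851 RefSeq promoters. GGGCGG was found in 5 of 9 and in 35.7% of all, TATAAA in 1 of 9 and in 13.6%, and AGGTCA in 0 of 9 and in 16.3%. A match in these windows is a description of letters.

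Hox genes of the B and C clusters were lower or not called. Of 8 tested *Hoxb* genes 6 were lower, with a median of -2.12, and of 5 *Hoxc* genes 3 were lower, with a median of -1.53. *Hoxb2* was at 10.4 CPM against 52.6 and 57.3 CPM, *Hoxb3* at 5.19 CPM against 27.0 and 33.4 CPM and *Hoxc6* at 16.9 CPM against 66.8 and 66.2 CPM. *Hoxa2* and *Hoxa3* were also lower, and of 8 *Hoxd* genes 1 (*Hoxd12*) was lower. *Hoxd12* and *Hoxc4* lost their calls among cells with at least 3 Meis UMIs and without cycling cells, and *Hoxc5* among cells with at least 3 Meis UMIs and under stricter matching. *Hoxa10* had the highest fold change of the Hox genes plotted, at 270 CPM against 173 and 170 CPM, and was not called. None of the Hox genes plotted was called higher.

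**Figure D3:**
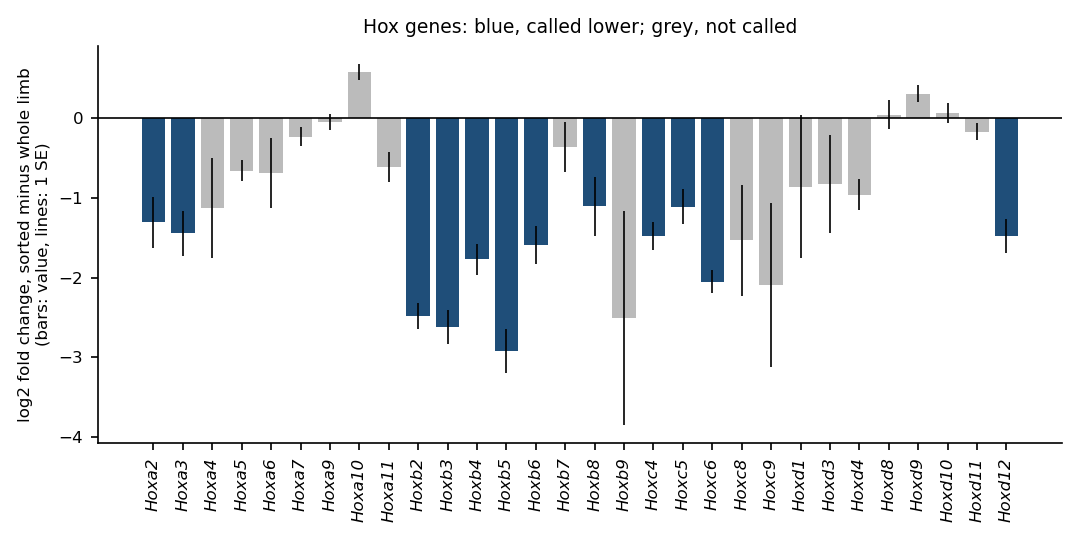
Log2 fold change (sorted minus whole limb) of Hox genes that were tested, ordered by cluster and number, with lines of 1 SE; blue bars passed and grey bars did not. The B and C cluster genes reach -2.92 at Hoxb5, while Hoxa10 stands at 0.58 and Hoxd9 at 0.31.

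The lower homeobox genes were also found in fewer sorted cells. With each cell thinned to 3000 UMIs, a UMI of *Msx1*, *Msx2* or *Lhx9* was found in 7.74% of sorted cells (exact 95% interval 5.92 to 9.92%) and in 58.5% and 60.0% of the whole limb cells. *Prrx1* or *Prrx2* UMIs were found in 50.8% against 83.9% and 82.0%. *Osr1* or *Osr2* UMIs were found in 50.3% of sorted cells (46.6 to 53.9%) and in 19.3% and 15.9% of the whole limb cells, and *Meox1* or *Meox2* in 48.1% against 19.5% and 19.9%. Unthinned, *Osr2* was found in 56.2% of sorted cells and in 15.2% and 12.5% of whole limb cells, against 32.7%, 9.35% and 6.87% thinned. For comparison, *Osr2* had a UMI in 3.13% and 3.95% of thinned whole limb cells with Hox13 UMIs, and *Pax1* in 0.688% and 1.40%. No cell type known to lack these genes was used here, so the share that stray transcripts give in each library was not tested. The intervals cover counting error only.

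**Figure D4:**
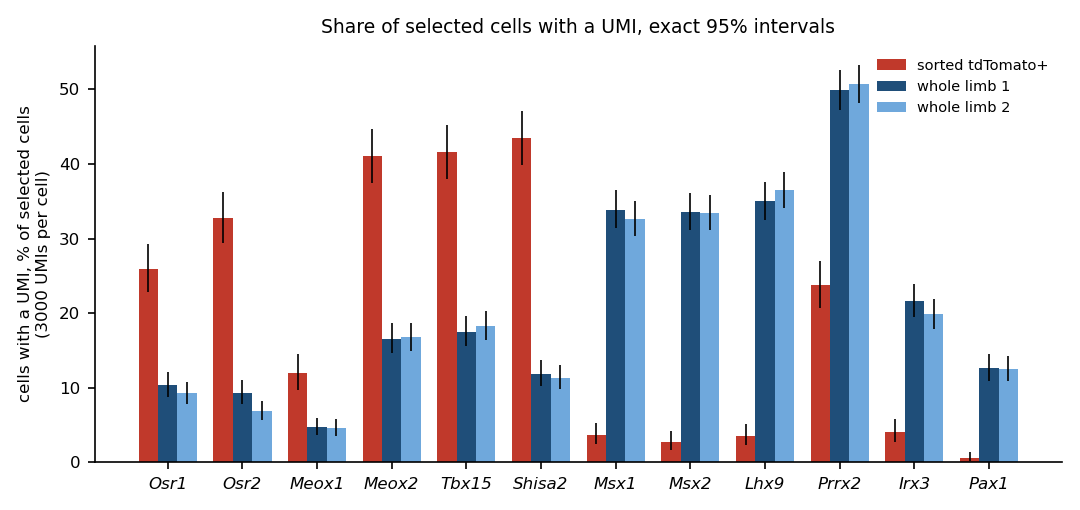
Share of gated cells (%) with a UMI of each of 12 genes after thinning to 3000 UMIs per cell, in the sorted library (red) and both whole limb libraries (blues), with exact 95% intervals. The first 6 genes are found in more sorted cells, such as Osr2 in 32.7% against 9.35% and 6.87%, and the last 6 in fewer, such as Lhx9 in 3.53% against 35.1% and 36.5%.

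What the matching itself changed was read from the same test without the Hox and Meis steps, given as values with no test of the difference. *Lmo2*, a distal cofactor gene, moved from a log2 fold change of -3.79 to -1.19, *Jag1* from -3.29 to -1.44, *Hoxd12* from -3.00 to -1.48 and *Hoxd11* from -1.20 to -0.17. In whole limb cells with Hox13 UMIs *Lmo2* was at 150 and 127 CPM against 6.81 and 6.97 CPM in the gated cells. *Msx2* moved from -3.63 to -3.38, *Lhx9* from -3.72 to -3.67 and *Pax1* from -4.19 to -4.21. *Hic1* moved from 4.79 to 3.4, *Osr1* from 2.37 to 1.37 and *Meox1* from 2.54 to 1.65. The distal list had a median of -2.96 without and -1.46 with matching, and the interstitial matrix list 0.84 without and 0.36 with it.

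**Figure D5:**
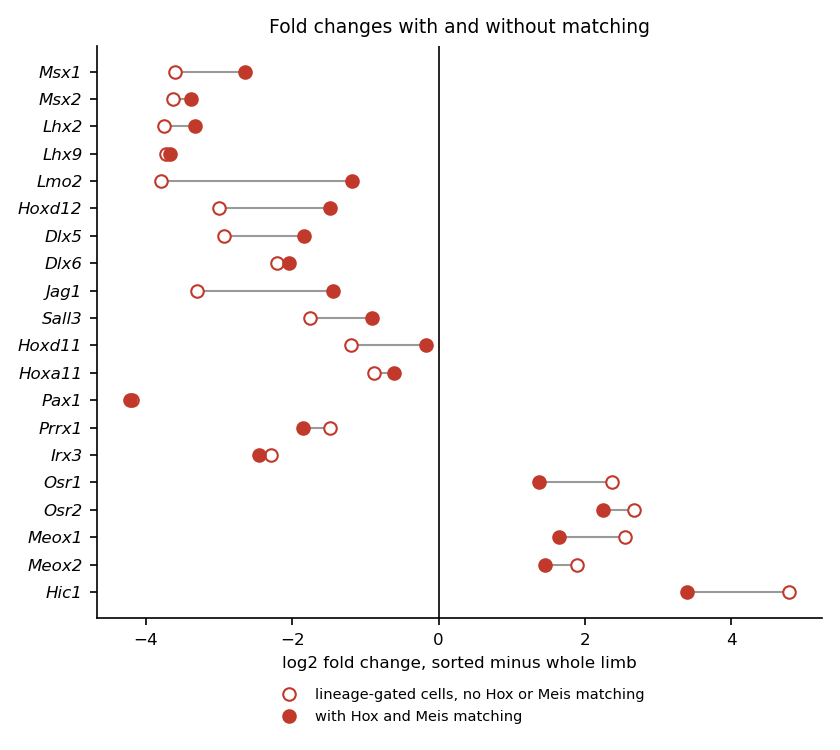
Log2 fold change (sorted minus whole limb) of 20 genes without (open circles) and with (filled circles) the Hox and Meis steps, joined by lines. Lmo2 moves from -3.79 to -1.19 and Pax1 stays near -4.2.

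Levels after E11.5 are given as values from the sorted libraries of the next 2 stages, gated alike (660 cells at E12.5 and 652 at E13.5). *Msx1* was at 40.1, 7.95 and 1.39 CPM at E11.5, E12.5 and E13.5, and *Msx2* at 25.1, 8.40 and 0.397 CPM. *Prrx1* was at 236, 327 and 252 CPM. *Dcn* was at 49.8, 118 and 262 CPM, *Kera*, a tendon and cornea proteoglycan gene, at 17.6, 41.7 and 123 CPM, and *Gdnf* at 11.4, 0.450 and 1.19 CPM. *Hic1* was at 16.4, 33.7 and 17.3 CPM. Each stage was 1 library, so these differences have no replicate check.

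Large differences were also found in genes of other kinds. *Iffo1*, which encodes an intermediate filament family protein, was at 112 CPM against 5.08 and 2.95 CPM, *Lsm7*, an RNA-processing gene, at 52.3 against 3.54 and 4.26 CPM, and *Col8a1*, a short-chain collagen gene, at 51.5 against 5.17 and 4.35 CPM. *Fau*, a ribosomal fusion gene, was at 89.6 against 11.5 and 13.4 CPM and *Nme2* at 82.7 against 11.7 and 11.9 CPM. In the E12.5 and E13.5 sorted libraries *Iffo1* was at 58.2 and 46.4 CPM, *Lsm7* at 28.5 and 95.4 CPM, *Col8a1* at 41.5 and 44.4 CPM, *Fau* at 53.2 and 109 CPM and *Nme2* at 23.7 and 128 CPM, all above both E11.5 whole limb libraries. Of 83 tested ribosomal protein genes 8 were higher, with a median of 0.08, and of 13 ribosomal protein pseudogenes 6 were higher, with a median of 1.07. *Rps27* was at 1853 CPM against 42.1 and 61.8 CPM, and at 1443 and 2041 CPM in the E12.5 and E13.5 sorted libraries. Of 49 replication-dependent histone genes 18 were higher, with a median of 0.84. Reads of genes with copies or overlapping neighbours can be split differently by a counting version or annotation, and the whole limb headers name no Cell Ranger version. Whether each gene of this paragraph has such a copy was not tested. The sorted E12.5 and E13.5 libraries name the same version as the sorted E11.5 library. Their levels therefore do not separate the group from the counting. The group and the counting cannot be told apart in any comparison of sorted with whole limb cells here. This includes the counts of called genes and the genes named in other paragraphs.

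Signs of handling and of the cell cycle were measured beside these results. Of 24 dissociation-response genes 4 were higher and none lower, among them *Hspa1a*, which shares sequence with *Hspa1b*, at 105 CPM against 17.1 and 7.63 CPM, and *Jun* at 632 against 298 and 248 CPM. *Jun* lost its call with thinned cells, under stricter matching and without cycling cells, and *Dnajb1*, another of the 4, under 4 alternatives. None of 24 mitosis genes or 22 DNA synthesis genes was called, against 5.37% higher and 2.70% lower of all genes tested. Their medians were -0.29 and -0.23, with a negative fold change in 19 and 20 genes. In unthinned cells, a UMI of *Mki67*, *Top2a*, *Birc5*, *Ccnb1*, *Cdk1* or *Cenpa* (the mark of a cycling cell here) was found in 88.9% of sorted and 88.6% and 91.5% of whole limb cells. These shares are near their ceiling and depend on depth, which was higher in sorted cells, so they do not show equal cycling. Of 22 hypoxia and glycolysis genes 3 were higher (*Eno1*, *Pgk1* and *Egln3*), and each lost its call without cycling cells. Their part in the differences above was not tested.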

How the data were processed

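The deposited files are gene by barcode matrices of UMI counts that the authors made with the Cell Ranger count pipeline from 10x 3′ libraries (v2 kit at E11.5) against a modified mm10 reference. Per the file headers the sorted E11.5, E12.5 and E13.5 libraries used Cell Ranger 3.0.2, and those of the whole limb libraries name no version. Groups were taken from the labels. Cells were gated as described, UMI counts were summed per library, and CPM is per 1000000 of those sums. The members and gene lists were chosen with earlier results of these data known.

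The 11 gate genes were left out of testing. Counts of 1 sorted and 2 whole limb libraries were fitted in edgeR 4.0.16 under R 4.3.3 by quasi-likelihood, after TMM scaling and filtering of low counts, with Benjamini-Hochberg adjustment, calling genes at an adjusted p under 0.05 and a 2-fold change. There was 1 residual degree of freedom, and the common coefficient of variation was 7.00%. The prior degrees of freedom had an infinite median, so the spread was pooled over genes. The gap between a gene's own 2 whole limb values therefore did not set its p-value or its SE. Each SE is the size of the log2 fold change divided by the square root of the F statistic. The labels do not say that the whole limb libraries came from separate litters, so p-values measure the pooled spread between these libraries only. Alternatives used limma-voom from limma 3.58.1, and DESeq2 1.42.0. On simulated counts of 12922 genes with 200 changed 4-fold, edgeR recovered 178 with 2 false calls, all 3 libraries being drawn with the same spread. Named genes were the 12 largest changes in each direction at 50 CPM or more in the higher group, leaving out transgenes, ribosomal protein, mitochondrial, histone, haemoglobin, sex-linked and unnamed genes, then up to 3 called genes per list and direction at 10 CPM or more. Other list members and *Rps27* were named after their values were seen. Certain genes are not reported here. No doublet caller was run, and cells over 20000 UMIs were left out in an alternative. Shares of cells were taken after thinning each cell to 3000 UMIs, with exact (Clopper-Pearson) 95% intervals. Positions are from GENCODE vM21 on GRCm38, the build of mm10. Other tools were Python 3.11.15, numpy 2.4.6, scipy 1.17.1, pandas 2.3.3 and matplotlib 3.10.9.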

Additional observations from a re-analysis of the deposited data

How the results depend on the processing

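The counts of 694 genes higher and 349 lower stayed within 1.5 times under limma-voom, DESeq2 size factors, no low-count filter, a minimum of 5000 UMIs, a mitochondrial limit of 5%, no cells over 20000 UMIs, stricter Hox matching, at least 3 Meis UMIs, sorted cells with at least 3 tdTomato UMIs, and technical gene classes left out. They were 232 and 182 with DESeq2, 418 and 213 with cells thinned to 3000 UMIs before gating (476 sorted cells left), 1479 and 711 without Hox or Meis matching, and 193 and 164 without cycling cells (82 sorted cells left). The share of calls that were higher was 66.5%, against 56.0% with DESeq2 and 54.1% without cycling cells. With 1 whole limb library left out, the called genes still at least 2-fold apart on the log2(CPM + 1) scale, a count with no test that understates low genes, were 529 higher and 221 lower without whole limb 1, and 460 and 212 without whole limb 2. Over the 78 genes the rule names, no direction reversed in 1236 values. These genes were chosen for large changes and the alternatives reuse the same libraries, so reversals were unlikely from the start. Calls were lost in 64 of them, most often without cycling cells (19), with thinning (10) and without matching (8). When a whole limb library was left out, 72 values moved by more than their SE (37 genes without whole limb 1 and 35 without whole limb 2). A gene not tested under an alternative adds no value there. The alternative with at least 3 tdTomato UMIs in sorted cells also kept only whole limb cells with no tdTomato UMI. Without cycling cells 48 of the 78 kept their call, 19 lost it and the rest were not tested. *Grem1* and *Eno1*, both near the 2-fold limit, each lost the call under 6 alternatives. The cause of these changes was not tested. No paired analysis was possible because the sorted group is 1 library. Depth limits genes with few UMIs, such as *Aspn* with 19 in the sorted library and 3 in each whole limb library.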

Other observations

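Among the gated sorted cells, 93 held no tdTomato UMI, and their summed levels are set here beside those of the 466 sorted cells with at least 3. *Msx1* was at 83.3 CPM in the former and 28.5 CPM in the latter, *Irx3* at 60.1 and 12 CPM, *Lhx9* at 44.3 and 12.2 CPM and *Hoxc6* at 40.1 and 14.3 CPM. *Osr2* was at 140 and 165 CPM, *Hic1* at 13.7 and 16.8 CPM and *Pax1* at 5.28 and 8.25 CPM. For *Msx1*, *Irx3*, *Lhx9* and *Hoxc6* the sorted cells without a tdTomato UMI were still below both whole limb libraries. These are sums within 1 library, chosen on a measured transcript, and no test was made.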
